A study of Mus musculus with 6 samples.

Results

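The genes described here were 6 receptors of the bone morphogenetic protein (BMP) pathway (Bmpr1a, Bmpr1b, Bmpr2, Acvr1, Acvrl1 and Eng) and 4 genes that BMP signals are known to induce (Id1, Id2, Id3 and Smad6). They are 10 of the 33697 genes in the deposited matrices and were taken by name. They were measured by droplet-based single-cell RNA sequencing of live tdTomato+ cells sorted from intestinal lamina propria. The Flare-TSLP mice carry a tdTomato cassette behind the Tslp coding sequence, which marks cells that use the Tslp locus. Of the 6 libraries, 2 came from the proximal small intestine (proximal jejunum), 2 from the distal small intestine (distal ileum), 1 from the cecum and 1 from large intestine. All groups shared the reporter allele, in which loxP sites also flank the last Tslp exons, on a C57BL/6 background. The line was made from 1 embryonic stem cell clone, the labels give no treatment and no age for these samples, and the methods describe adult mice of both sexes. Cells of the same types without reporter fluorescence were not sorted and not measured. Each library pooled cells that carried 3 hashtags (barcoded antibodies). The paper states that at least 3 biological samples were used for each small intestinal tissue, and its methods describe hashtags for multiplexing. Nothing says which hashtag or replicate number stands for which mouse, so each library was 1 sample and p-values measured the spread between these libraries. Cecum and large intestine, 1 library each, are called the large bowel together.

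BMPs are secreted ligands that bring together type I receptors (ALK3, ALK6, ALK2 and ALK1, encoded by Bmpr1a, Bmpr1b, Acvr1 and Acvrl1) and type II receptors such as Bmpr2. The type I kinases phosphorylate Smad1, Smad5 and Smad9, which enter the nucleus with Smad4 and switch on target genes, among them the Id genes, whose products block basic helix-loop-helix transcription factors, and Smad6, an inhibitor that feeds back on the pathway. Endothelial cells use Acvrl1 with the coreceptor endoglin (Eng) to sense the circulating ligands BMP9 and BMP10. In the gut wall BMP ligands are made mostly toward the villus and their antagonists around the crypt, and this gradient helps to place stem cells and differentiated epithelium.

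Cells were put in 7 classes by counting marker genes, none of which is a member. The authors removed contaminant clusters with almost no tdTomato+ cells. That step was not repeated here, and no class required reporter transcript. The paper's text names lymphatic but no blood endothelial cells among its sequenced types. Whether the blood endothelial cells below use the Tslp locus was not tested. The classes were lymphatic (LEC-like, 11845 cells) and blood endothelial cells (BEC-like, 955), Grem1+ trophocyte-like fibroblasts (24157), subepithelial fibroblasts (SEMF-like, 5627), Pdgfra-high telocyte-like cells (2695), pericyte-like cells (592) and myofibroblast-like cells (814). These were 46685 cells of the 91122 that passed the filters; the share in a class was 56.8 to 63.0% in the 4 small intestinal libraries, 15.5% in the cecum and 39.9% in large intestine. A level is given as UMIs (molecular tags that count captured transcripts) per 1000000 UMIs of that class in that library, abbreviated CPM. The tests were edgeR quasi-likelihood tests on sums per library and class, with 20 cells as the minimum. BEC-like cells of the cecum (13 cells) and pericyte-like cells of distal replicate 1 (11 cells) fell below it and are left out. Defining markers were present where the names require them, which follows from the gates, and no cell passed 2 gates. That count does not show that telocyte-like and SEMF-like cells were separate. The median telocyte-like cell held 5 SEMF markers, the SEMF minimum, in proximal replicate 2, distal replicate 1 and the cecum (4 in the others). SEMF markers summed to 2798 to 5787 CPM in telocyte-like and 3054 to 3895 CPM in SEMF-like cells. Telocyte markers summed to 4123 to 7806 CPM against 375 to 1171 CPM. That gap follows from the gate on these markers and does not show separate classes. Of cecal trophocyte-like cells 98.8%, and of large intestinal ones 96.3%, held exactly the minimum number of markers, against 52.6 to 63.9% in the small intestine. The Dkk2 level of the cecal and large intestinal trophocyte-like cells, 20.3 and 19.0 CPM, was also below the 604 to 1082 CPM of the small intestine. Most of these large bowel cells thus met the gate by the other trophocyte markers. Libraries held 109675337 (cecum) to 206827504 UMIs on genes, the median cell held 6590 to 9162 UMIs, and pairs of libraries shared 0.323 to 0.609% of cell barcodes. Free RNA, read from barcodes with at most 100 UMIs, made up 2.90 to 3.82% of the UMIs and sets a background that is given beside low levels of the members. No such background is given for other genes.

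Among the type I receptors, Bmpr1a (chromosome 14, 34132687 to 34225379, minus strand; all gene positions are from GENCODE on GRCm39) separated stromal from endothelial classes. Trophocyte-like cells held 216 and 219 (proximal), 179.6 and 222 (distal), 208 (cecum) and 244 CPM (large intestine). LEC-like cells held 6.16 and 4.76 (proximal), 4.53 and 8.13 (distal), 11.6 (cecum) and 3.67 CPM (large intestine). Every one of the 29 stromal values was above every endothelial value, the highest of which was 14.3 CPM in BEC-like cells of proximal replicate 1. The 5 stromal means lay between 179 ± 30.7 CPM (SD, n = 6) in SEMF-like and 252 ± 51.3 CPM (SD, n = 6) in myofibroblast-like cells. In that order SEMF-like cells exceeded BEC-like cells by 4.04 ± 0.19 (SE, edgeR adjusted p = 1.94e-18) on the log2 scale. Trophocyte-like exceeded telocyte-like cells by 0.38 ± 0.14 (SE, edgeR adjusted p = 0.0305), and the other stromal neighbours did not pass. Free RNA held 112 to 139 CPM of Bmpr1a, more than either endothelial class. After 10% of each sum was subtracted along the free RNA no Bmpr1a was left in LEC-like cells of any library or in BEC-like cells of 4 of 5.

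Bmpr1b (chromosome 3, 141542897 to 141875323, minus strand), the other BMP type I receptor of this pair, was highest in myofibroblast-like cells and next in trophocyte-like cells. Myofibroblast-like cells held 132 and 132 (proximal), 162 and 296 (distal), 189 (cecum) and 274 CPM (large intestine). Trophocyte-like cells held 56.5 and 88.2 (proximal), 36.8 and 58.2 (distal), 0 (cecum) and 2.86 CPM (large intestine). Myofibroblast-like cells were above trophocyte-like cells by 2.76 ± 0.56 (SE, edgeR adjusted p = 0.000102), and trophocyte-like above telocyte-like cells by 2.69 ± 0.79 (SE, edgeR adjusted p = 0.00669), both on the log2 scale. Means in the other classes were 1.04 to 13.4 CPM, their neighbours in the order did not pass, and free RNA held 2.71 to 32.7 CPM.

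Acvr1 (chromosome 2, 58278656 to 58457770, minus strand) varied least between classes among the type I receptors. Its 7 class means ranged from 68.5 ± 12.3 CPM (SD, n = 6) in LEC-like to 145 ± 22.4 CPM (SD, n = 6) in SEMF-like cells. The step from telocyte-like down to pericyte-like cells was 0.44 ± 0.12 (SE, edgeR adjusted p = 0.00269) and that from trophocyte-like to BEC-like cells 0.49 ± 0.11 (SE, edgeR adjusted p = 0.000172), while the other neighbours did not pass. Free RNA held 77.4 to 104 CPM of Acvr1, more than the means of both endothelial classes, and 10% of each sum subtracted along it left Acvr1 in both. Acvrl1 (chromosome 15, 101025996 to 101043217, plus strand), the type I receptor for BMP9 and BMP10, was highest in BEC-like cells, at 211 and 261 (proximal), 260.5 and 246 (distal) and 256 CPM (large intestine). SEMF-like cells came next, with 139 (lowest), 165 (median) and 187 CPM (highest) over the 6 libraries. LEC-like cells were lowest, with 33.4 (lowest), 36.8 (median) and 59.8 CPM (highest), and did not overlap BEC-like or SEMF-like cells. The steps from BEC-like to SEMF-like, on to telocyte-like and on to myofibroblast-like cells passed, at 0.84 ± 0.14 (SE, edgeR adjusted p = 2.64e-06), 0.40 ± 0.14 (SE, edgeR adjusted p = 0.0399) and 0.43 ± 0.15 (SE, edgeR adjusted p = 0.0187). So did the last step, from trophocyte-like to LEC-like cells, at 0.63 ± 0.13 (SE, edgeR adjusted p = 0.000107). The step from SEMF-like to telocyte-like cells passed under 8 of 20 alternative settings only. Free RNA held 63.6 to 125 CPM of Acvrl1, above the means of trophocyte-like (61.5 CPM) and LEC-like cells (43.0 CPM).

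Bmpr2 (chromosome 1, 59802544 to 59918173, plus strand), the type II receptor that the type I receptors pair with, was present in every class. BEC-like cells held 985 and 887 (proximal), 860.0 and 1049 (distal) and 639 CPM (large intestine), above every value of the other classes. The step to SEMF-like cells, the next class with 208 (lowest), 402 (median) and 533 CPM (highest), was 1.42 ± 0.12 (SE, edgeR adjusted p = 3.5e-12) on the log2 scale. None of the 5 steps below it passed, and the lowest mean was 261 ± 32.1 CPM (SD, n = 6) in trophocyte-like cells. Eng (chromosome 2, 32535543 to 32574661, plus strand), the endothelial coreceptor, followed the endothelial lineage more closely. BEC-like cells held 759 and 877 (proximal), 829 and 834 (distal) and 604 CPM (large intestine). LEC-like cells held 231 (lowest), 245 (median) and 309 CPM (highest) and the next class, pericyte-like cells, 97.4 to 130.4 CPM, so that these 3 classes did not overlap. The steps were 1.68 ± 0.13 (SE, edgeR adjusted p = 3.39e-13) and 1.22 ± 0.14 (SE, edgeR adjusted p = 2.4e-09). Myofibroblast-like and trophocyte-like cells were lowest, at 48.4 ± 8.23 CPM (SD, n = 6) and 50.2 ± 8.57 CPM (SD, n = 6), and did not differ from each other beyond their spread. Both means lay below the 58.0 to 116 CPM of Eng in free RNA. All members except Bmpr1b and Smad6 share exon bases with a gene annotated on the other strand (Eng with Fpgs, Acvr1 with Upp2), and Bmpr2 with an unnamed gene on its own strand; whether those genes contributed UMIs was not tested.

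**Figure D1:**
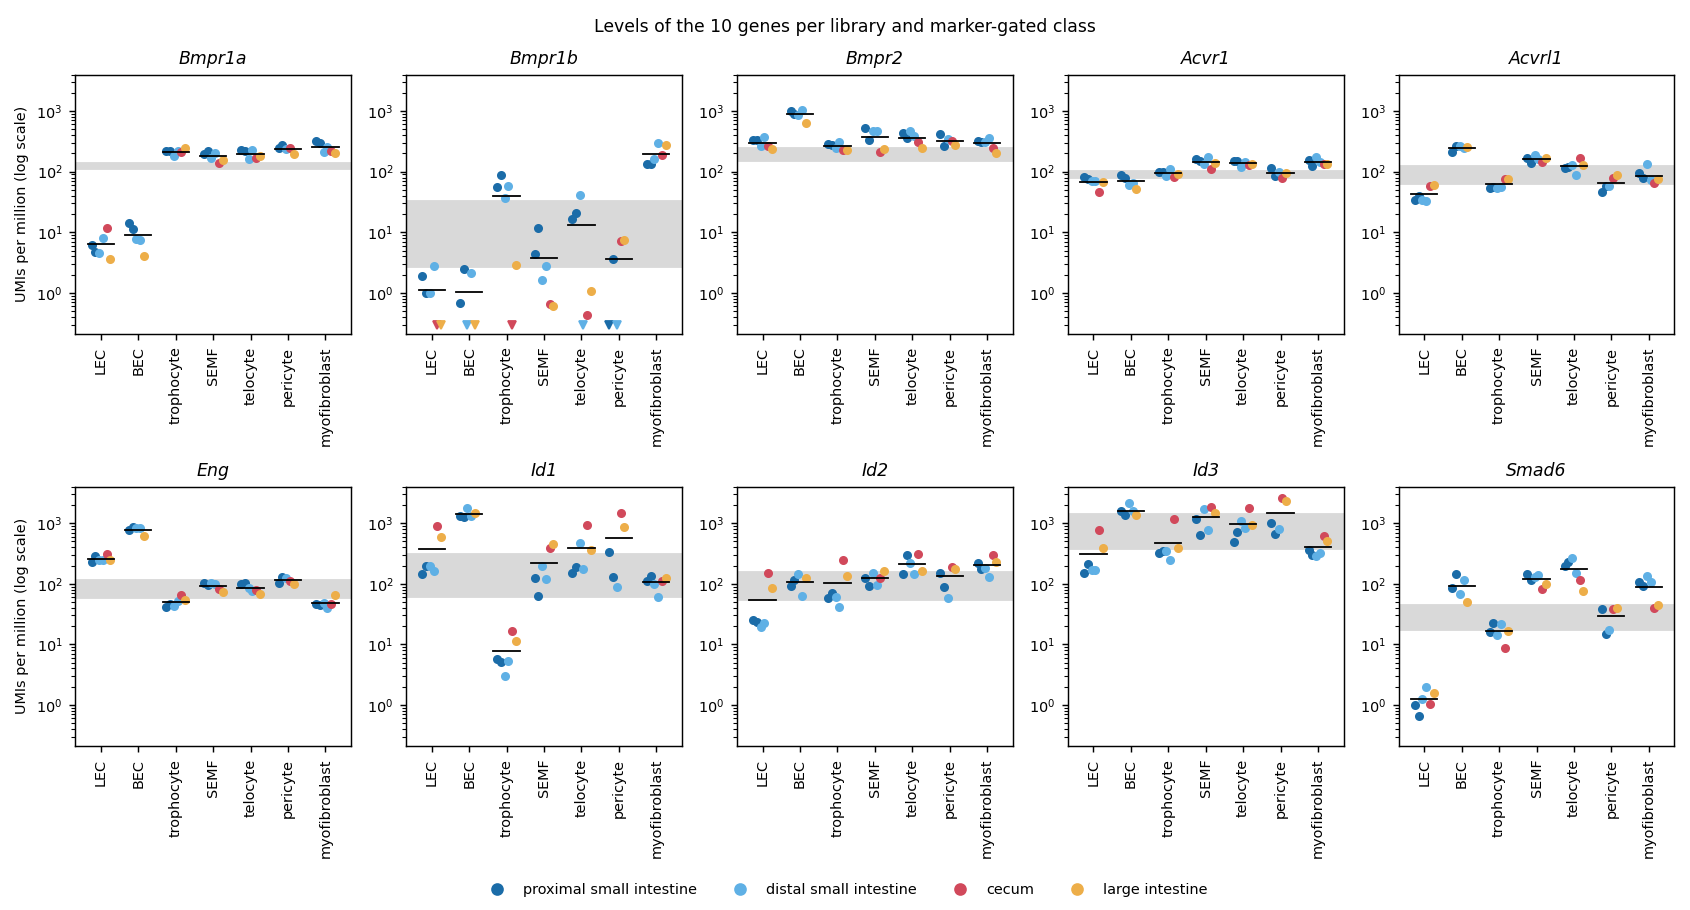
CPM (log axis) of the 10 genes in 7 marker-gated classes; each point is a library with at least 20 cells of the class, colored by region, black lines are means, triangles mark libraries at 0 (drawn at the foot of the axis) and grey bands span the free RNA of the 6 libraries. Class means below the band were those of Bmpr1a (6.48 and 9.01 CPM), Bmpr1b and Acvr1 in LEC-like and BEC-like cells, Acvrl1 and Smad6 in LEC-like (43.0 and 1.25 CPM) and trophocyte-like cells, Eng in trophocyte-like and myofibroblast-like cells, Id1 in trophocyte-like cells (7.86 CPM) and Id3 in LEC-like cells.

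The promoters of 3 of the targets are shown because Id2 and Id3 passed the test between regions in LEC-like and trophocyte-like cells, as given below, and Smad6 is the other target with an entry. The 250 bases upstream of the RefSeq start on GRCm38.p6 are printed 5′ to 3′ for Id2 (chr12:25096093-25096342, minus strand), Id3 (chr4:136143572-136143821, plus strand) and Smad6 (chr9:64022060-64022309, minus strand), with GGCGCC, the palindromic core of a motif that Smad1 and Smad5 bind, in capitals where it occurs.
Id2: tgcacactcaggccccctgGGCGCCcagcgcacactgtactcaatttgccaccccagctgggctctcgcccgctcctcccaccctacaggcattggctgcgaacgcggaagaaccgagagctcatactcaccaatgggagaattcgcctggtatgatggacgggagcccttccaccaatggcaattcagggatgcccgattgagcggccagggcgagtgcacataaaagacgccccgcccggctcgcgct
Id3: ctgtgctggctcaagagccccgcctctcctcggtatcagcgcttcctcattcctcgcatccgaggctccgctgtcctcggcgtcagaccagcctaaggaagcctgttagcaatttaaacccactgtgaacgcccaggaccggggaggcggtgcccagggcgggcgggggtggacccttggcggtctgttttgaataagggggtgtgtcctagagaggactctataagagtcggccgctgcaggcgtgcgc
Smad6: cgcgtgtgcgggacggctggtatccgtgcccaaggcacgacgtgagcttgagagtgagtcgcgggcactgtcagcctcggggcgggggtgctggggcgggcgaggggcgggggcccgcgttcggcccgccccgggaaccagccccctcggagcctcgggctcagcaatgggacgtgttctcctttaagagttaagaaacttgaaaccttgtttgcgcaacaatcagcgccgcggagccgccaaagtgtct
GGCGCC was searched on both strands and was found in 9.59% of 32851 RefSeq promoters of this length. Of the 8 members with a RefSeq promoter there, Bmpr1a, Bmpr2 and Id2 held it and Id3 and Smad6 did not. GGCGCC followed by any 5 bases and GTCT, the longer form of the motif (0.07% of promoters), and the palindrome GTCTAGAC (0.167%) were not in the windows of any member. The windows shown are rich in G and C (62.8%, 62.8% and 66.8%, against a median of 52.4% over all promoters).

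Of the targets, Id1 (chromosome 2, 152566218 to 152579544, plus strand) spanned the widest range. BEC-like cells held 1322 and 1252 (proximal), 1757 and 1296 (distal) and 1456 CPM (large intestine). Trophocyte-like cells, the lowest class, held 5.76 and 5.12 (proximal), 3.02 and 5.34 (distal), 16.5 (cecum) and 11.4 CPM (large intestine). The means of the 5 classes between them ran from 108 ± 25.7 CPM (SD, n = 6) in myofibroblast-like to 576 ± 587 CPM (SD, n = 5) in pericyte-like cells. LEC-like, SEMF-like, telocyte-like and pericyte-like values overlapped one another. Myofibroblast-like values (61.6 to 136 CPM) lay below every LEC-like value (144 to 908 CPM) and every telocyte-like value (148 to 939 CPM). LEC-like cells exceeded them by 1.34 ± 0.34 (SE, edgeR adjusted p = 0.00107) and telocyte-like cells by 1.35 ± 0.35 (SE, edgeR adjusted p = 0.00294). Between neighbours in the order of means, only the outer steps passed. BEC-like cells exceeded pericyte-like cells by 2.32 ± 0.39 (SE, edgeR adjusted p = 7e-06) on the log2 scale. The step from myofibroblast-like down to trophocyte-like cells was 3.93 ± 0.38 (SE, edgeR adjusted p = 2.33e-10). Free RNA held 59.8 to 306 CPM of Id1, and subtracting 10% of each sum along it left no Id1 in trophocyte-like cells of any library.

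Id3 (chromosome 4, 135870808 to 135873066, plus strand) was high in BEC-like cells, at 1615 ± 307 CPM (SD, n = 5), and in pericyte-like and SEMF-like cells, at 1485 ± 905 CPM (SD, n = 5) and 1263 ± 492 CPM (SD, n = 6). It was lower in trophocyte-like cells at 469 ± 344 CPM (SD, n = 6), myofibroblast-like cells at 399 ± 136 CPM (SD, n = 6) and LEC-like cells at 313 ± 245 CPM (SD, n = 6). The steps that passed were BEC-like to pericyte-like (0.65 ± 0.25, SE, edgeR adjusted p = 0.0283), telocyte-like to trophocyte-like (0.91 ± 0.22, SE, edgeR adjusted p = 0.00117) and myofibroblast-like to LEC-like cells (0.52 ± 0.22, SE, edgeR adjusted p = 0.0417). Free RNA held 371 to 1436 CPM of Id3, more than the LEC-like mean, and 54.5 to 155 CPM of Id2. Id2 (chromosome 12, 25143798 to 25147282, minus strand) had the flattest order of the Id genes, from 212 ± 73.6 CPM (SD, n = 6) in telocyte-like and 207 ± 58.2 CPM (SD, n = 6) in myofibroblast-like cells to 54.6 ± 54.1 CPM (SD, n = 6) in LEC-like cells. Only its last step, trophocyte-like above LEC-like cells, passed, at 1.15 ± 0.27 (SE, edgeR adjusted p = 0.000334). Much of the spread within a class lay between regions, which are compared below.

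Smad6 (chromosome 9, 63860341 to 63929793, minus strand), the inhibitory Smad, was at 76.8 (lowest), 175 (median) and 267 CPM (highest) in telocyte-like cells and at 81.3 (lowest), 122 (median) and 145 CPM (highest) in SEMF-like cells. BEC-like cells held 86.3 and 147 (proximal), 67.4 and 114 (distal) and 49.6 CPM (large intestine). LEC-like cells held 0.988 and 0.668 (proximal), 1.26 and 1.97 (distal), 1.06 (cecum) and 1.57 CPM (large intestine), that is 13, 23, 5, 53, 1 and 3 UMIs in all their cells. The first 3 steps in the order, from telocyte-like over SEMF-like and BEC-like to myofibroblast-like cells, did not pass. Myofibroblast-like exceeded pericyte-like cells by 1.37 ± 0.33 (SE, edgeR adjusted p = 0.00129). Pericyte-like exceeded trophocyte-like cells by 0.85 ± 0.33 (SE, edgeR adjusted p = 0.0334), and trophocyte-like exceeded LEC-like cells by 3.95 ± 0.34 (SE, edgeR adjusted p = 3.48e-12) on the log2 scale. With 17.5 to 44.1 CPM in free RNA, the LEC-like level is read as background, and the trophocyte-like mean (16.6 CPM) was also below it. Subtracting 10% of each sum along the free RNA left no Smad6 in LEC-like cells of any of the 6 libraries. Over all members, 25 of the 60 steps between neighbouring classes passed. Between the classes of these steps the share of all genes that passed was high. For LEC-like cells it was 49.3% against BEC-like, 67.2% against trophocyte-like, 64.6% against SEMF-like, 57.5% against telocyte-like, 54.5% against pericyte-like and 60.3% against myofibroblast-like cells. For BEC-like cells it was 65.7% against trophocyte-like, 65% against SEMF-like, 48.2% against pericyte-like and 59% against myofibroblast-like cells. Among stromal classes it was 17.7% between SEMF-like and telocyte-like, 32.4% between pericyte-like and myofibroblast-like, 35.7% between telocyte-like and myofibroblast-like, 39.1% between trophocyte-like and telocyte-like, 39.8% between telocyte-like and pericyte-like cells. It was 44.6% between SEMF-like and myofibroblast-like, 46.3% between trophocyte-like and myofibroblast-like, 46.3% between SEMF-like and pericyte-like and 47.7% between trophocyte-like and pericyte-like cells.

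The 2 endothelial classes were compared directly. Of the 10 members, 8 were lower in LEC-like than in BEC-like cells and none was higher, where 49.3% of 12981 genes passed, 25.6% higher and 23.7% lower. Smad6 differed by -6.32 ± 0.36 (SE, edgeR adjusted p = 2.96e-16), and Id3 by -2.92 ± 0.24 (SE, edgeR adjusted p = 3.84e-12). Id1 differed by -2.72 ± 0.36 (SE, edgeR adjusted p = 1.03e-07) and Id2 by -1.62 ± 0.30 (SE, edgeR adjusted p = 2.57e-05). Among the receptors, Acvrl1 differed by -2.68 ± 0.15 (SE, edgeR adjusted p = 1.11e-16), Eng by -1.68 ± 0.13 (SE, edgeR adjusted p = 3.39e-13) and Bmpr2 by -1.57 ± 0.12 (SE, edgeR adjusted p = 7.71e-13). These 7 passed under 20 of 20 alternative settings. The size for Smad6 is uncertain, since its LEC-like level is read as background and the fitted value was -12.91 with 10% of each sum subtracted along the free RNA. Bmpr1a, at -0.72 ± 0.22 (SE, edgeR adjusted p = 0.00562), rested on levels near the background in both classes (the fitted value was -5.79 after the same subtraction) and did not pass without proximal replicate 1 (-0.40, edgeR adjusted p = 0.25) or proximal replicate 2 (-0.58, edgeR adjusted p = 0.0612). Acvr1 (adjusted p = 0.787) and Bmpr1b (adjusted p = 0.825) did not pass in edgeR's test. Of 13 immediate early and heat shock genes, which dissociation is known to induce, 8 were lower and 1 higher in LEC-like cells; their part in the Id differences was not tested.

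In a list of 41 other ligands, receptors, Smads, antagonists and targets of the pathway, 37 were tested between the endothelial classes, 6 were higher and 16 lower in LEC-like cells, with a median log2 difference of -0.62 against 0.05 over all genes. Of all genes 49.3% passed, 25.6% higher and 23.7% lower. Smad7, the other inhibitory Smad, was at 10.3 ± 3.41 CPM in LEC-like against 331 ± 41.9 CPM in BEC-like cells (-5.06 on the log2 scale). Bambi, a pseudoreceptor that blocks BMP signals, was at 8.61 ± 1.23 CPM and 69.5 ± 19.2 CPM (-2.98), and the coreceptor Neo1 and the target Id4 were lower as well (-3.39 and -4.56). The target Msx1 was at 0.0175 ± 0.0309 CPM and 24.0 ± 8.85 CPM. The signal-carrying Smad1 went the other way, at 529 ± 81.9 CPM in LEC-like and 282 ± 50.2 CPM in BEC-like cells (0.92). Tgfbr2, the TGF-β type II receptor (0.67), the extracellular modulator Twsg1 (2.22), Fkbp1a, which holds type I receptors inactive (0.43), and the ligand Bmp7 (4.82 ± 2.05 CPM against 0.623 ± 0.736 CPM) were also higher. Since no background is given for genes of this list, here and below, differences between levels as low as those of Bmp7 are uncertain.

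SEMF-like and trophocyte-like cells, the fibroblasts under the epithelium and around the crypt, differed in 8 of the 10 members, 6 higher and 2 lower in SEMF-like cells, where 44.6% of genes passed, 22.5% higher and 22.1% lower. Id1 was higher by 4.55 ± 0.38 (SE, edgeR adjusted p = 1.26e-11), Smad6 by 2.64 ± 0.25 (SE, edgeR adjusted p = 1.24e-10) and Id3 by 1.35 ± 0.22 (SE, edgeR adjusted p = 5.97e-06). The endothelial type I receptor Acvrl1 was higher by 1.20 ± 0.13 (SE, edgeR adjusted p = 3.24e-09), Eng by 0.68 ± 0.12 (SE, edgeR adjusted p = 1.88e-05) and Acvr1 by 0.40 ± 0.10 (SE, edgeR adjusted p = 0.000736). Bmpr1b and Bmpr1a were lower, at -3.58 ± 0.60 (SE, edgeR adjusted p = 7.52e-06) and -0.49 ± 0.13 (SE, edgeR adjusted p = 0.00319). These passed under all 20 alternative settings except Bmpr1a, which the stricter gate moved to -0.38 (edgeR adjusted p = 0.0637). With 10% of each sum subtracted along the free RNA, which left no Id1 in trophocyte-like cells, the fitted value of Id1 was 13.29, so its size is uncertain. Bmpr2 (0.26 ± 0.11, SE, edgeR adjusted p = 0.0649) and Id2 (0.36 ± 0.26, SE, edgeR adjusted p = 0.279) did not pass over all libraries. Both passed without the cecum and in the 4 small intestinal libraries alone, at 0.47 (edgeR adjusted p = 0.00145) and 0.77 (edgeR adjusted p = 0.000632). Of 13 immediate early and heat shock genes 12 were lower in SEMF-like cells, and their part in the Id differences was not tested.

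Of the 37 other pathway genes tested between these fibroblasts, 11 were higher and 12 lower in SEMF-like cells. Of all genes 44.6% passed, 22.5% higher and 22.1% lower. The ligands Bmp5 (549 ± 317 CPM against 97.2 ± 73.4 CPM, log2 difference 2.21) and Bmp7 (4.49) were higher, with the target Atoh8 (31.5 ± 9.48 CPM against 2.24 ± 0.292 CPM, 3.61), the signal-carrying Smad9 (2.79) and the modulator Bmper (2.62). The antagonists Chrdl1 (-5.90) and Chrd (-3.49) were lower, as were the coreceptors Rgma (-1.93) and Rgmb (-2.21) and the TGF-β coreceptor Tgfbr3, at 220.4 ± 77.2 CPM against 1231 ± 266 CPM (-2.73).

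Between telocyte-like and SEMF-like cells 1 of 10 members passed, where 17.7% of genes did, 8.68% higher and 9.01% lower. It was Acvrl1, at -0.40 ± 0.14 (SE, edgeR adjusted p = 0.0399), which passed under 8 of 20 alternative settings and not without any single library other than the cecum (edgeR adjusted p from 0.0672 to 0.201). Smad6 (0.44 ± 0.24), Id1 (0.72 ± 0.34), Id2 (0.67 ± 0.27) and Id3 (-0.44 ± 0.22) did not pass. With only the later-listed markers of each class Id3 was lower in telocyte-like cells (-0.99, edgeR adjusted p = 0.000498), and the fitted values of Id1, Id2 and Smad6 turned to -0.27, -0.16 and -0.38, none past the threshold. Acvr1 passed with these markers (-0.33, edgeR adjusted p = 0.0365), Id2 by DESeq2 (0.75, adjusted p = 0.0453) and Smad6 without the large intestine (0.61, edgeR adjusted p = 0.0475). In the 4 small intestinal libraries alone Id2 (0.77, edgeR adjusted p = 0.00958) and Smad6 (0.64, edgeR adjusted p = 0.0382) were higher in telocyte-like cells. Of 13 immediate early genes 3 were higher in telocyte-like cells. The small intestine gave 36 to 87 telocyte-like cells a library and the large intestine 2191. Other genes of the pathway did separate the classes, 10 higher and 7 lower in telocyte-like cells. Among them were the ligands Bmp5 (2030.0 ± 399 CPM against 549 ± 317 CPM), Bmp2 (529.9 ± 199 CPM against 108 ± 149 CPM) and Bmp7 (189.6 ± 42.2 CPM against 27.6 ± 46.3 CPM). The antagonists were Fst (346 ± 257 CPM against 11.5 ± 21.4 CPM) and Chrd (26.0 ± 18.8 CPM against 3.20 ± 0.528 CPM). Lower in telocyte-like cells were Bmper (-2.21), Hey1 (-2.03), Tmem100 (-1.80), Id4 (-1.23) and the activin receptor Acvr1b (-0.97).

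The contractile classes differed in 6 of 10 members, 3 higher and 3 lower in pericyte-like cells, where 32.4% of genes passed, 15.6% higher and 16.8% lower. Id2 and Acvrl1 did not pass over all libraries (-0.76 ± 0.30, SE, edgeR adjusted p = 0.0534 and -0.35 ± 0.16, SE, edgeR adjusted p = 0.101) but were lower in pericyte-like cells without the cecum (0.048 and 0.0489, edgeR adjusted p). Pericyte-like cells held more Id3, by 1.76 ± 0.23 (SE, edgeR adjusted p = 3.46e-07), more Id1, by 1.73 ± 0.37 (SE, edgeR adjusted p = 0.000388), and more Eng, by 1.23 ± 0.14 (SE, edgeR adjusted p = 2.73e-08). They held less Bmpr1b, at -5.64 ± 0.91 (SE, edgeR adjusted p = 8.27e-06), less Smad6, at -1.37 ± 0.33 (SE, edgeR adjusted p = 0.00129), and less Acvr1, at -0.59 ± 0.12 (SE, edgeR adjusted p = 0.000137). The Id1 difference did not pass in the small intestine alone (0.78, edgeR adjusted p = 0.163). Of 13 immediate early genes, 5 were higher in pericyte-like cells and none lower. Of the other pathway genes, 3 were higher and 14 lower in pericyte-like cells. The antagonist Nog was far lower in pericyte-like cells (0.481 ± 0.797 CPM against 25.1 ± 14.1 CPM). Neo1 was at 67.2 ± 11.4 CPM against 356 ± 20.4 CPM and the ligand Bmp4 at 40.8 ± 10.8 CPM against 145 ± 67.5 CPM. Chrdl1 (1.57), Tmem100 (1.56) and Hey1 (2.10) were higher in pericyte-like cells. Smad9 (-2.76) and Tgfbr3 (-2.37) were lower.

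LEC-like and trophocyte-like cells, the largest endothelial and fibroblast classes, differed in 9 of 10 members, 2 higher and 7 lower in LEC-like cells, where 67.2% of genes passed, 34.3% higher and 32.9% lower. Id1 (5.27 ± 0.39, SE, edgeR adjusted p = 1.05e-13) and Eng (2.29 ± 0.12, SE, edgeR adjusted p = 2.55e-17) were higher in LEC-like cells. Bmpr1a (-5.26 ± 0.17), Bmpr1b (-4.81 ± 0.71), Smad6 (-3.95 ± 0.34), Id2 (-1.15 ± 0.27), Id3 (-0.72 ± 0.22), Acvrl1 (-0.63 ± 0.13) and Acvr1 (-0.54 ± 0.10) were lower, with adjusted p from 1.22e-22 to 0.00414 by edgeR. The sizes for Id1, Bmpr1a, Bmpr1b and Smad6 are uncertain, since the lower level lay below the free RNA and the fitted values were 13.98, -14.25, -9.10 and -10.43 with 10% of each sum subtracted along the free RNA. For Eng, Id3, Acvrl1 and Acvr1 the mean of the lower class was also below the free RNA. Over all settings their values ran from 2.15 to 2.58, -0.99 to -0.48, -0.88 to -0.54 and -0.74 to -0.44, in this order. Id3 did not pass once the library block was removed (-0.72, edgeR adjusted p = 0.139). Bmpr2 did not pass (0.11 ± 0.11, SE, edgeR adjusted p = 0.404). Of 13 immediate early genes 2 were higher and 2 lower in LEC-like cells. Of the other pathway genes, 9 were higher in LEC-like cells, led by Hey1 (5.29), Bmp7 (3.30), Smad1 (1.76), Fkbp1a (1.52) and Atoh8 (1.46), and 24 were lower, led by Chrdl1 (-5.48), Bmp4 (-5.07), Chrd (-4.93), Msx1 (-4.77) and Neo1 (-4.75). The Bmp4 level of trophocyte-like cells was 256 ± 42.2 CPM and that of LEC-like cells 9.11 ± 4.78 CPM.

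**Figure D2:**
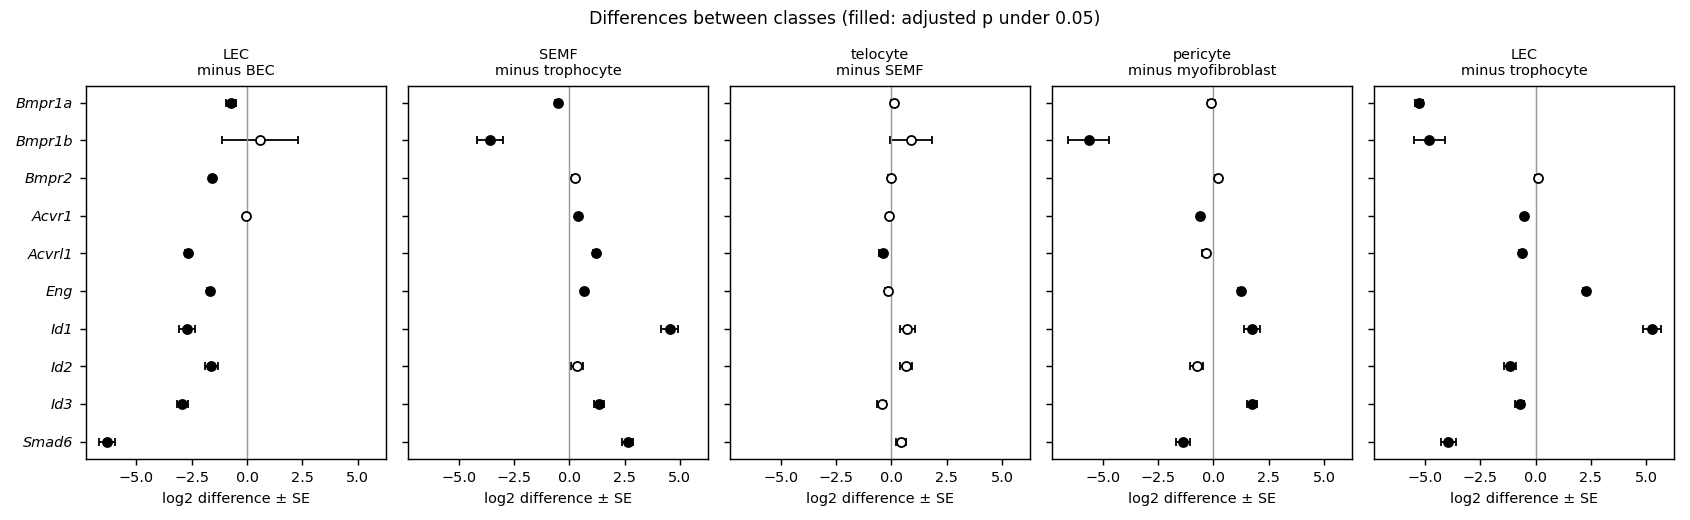
Log2 differences of the 10 genes in 5 comparisons between classes, with SE as bars; filled points had an edgeR adjusted p under 0.05. In the first panel 8 points were filled and lay left of 0, from Bmpr1a at -0.72 to Smad6 at -6.32, and in the middle panel 1 was filled.

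Within the small intestine no member passed the edgeR test between the proximal and the distal part over all libraries, with the filter on low counts and without replicate numbers in the fit. The fitted log2 differences ran from -1.10 to 0.20 in LEC-like, -0.12 to 0.61 in trophocyte-like and -0.78 to 1.78 in SEMF-like cells, with smallest adjusted p of 1, 0.721 and 1 by edgeR. With the replicate number as a block Bmpr1b passed in SEMF-like (1.88, edgeR adjusted p = 2.57e-05) and in trophocyte-like cells (0.60, edgeR adjusted p = 0.00146) as higher in the proximal part, and Id1 in SEMF-like cells as lower (-0.82, edgeR adjusted p = 0.00352). Bmpr1b in SEMF-like cells also passed with no filter on low counts (1.79, edgeR adjusted p = 0.00195) and without proximal replicate 1 (2.31, edgeR adjusted p = 0.0229). It was at 4.46 and 12.0 CPM in the proximal and 1.66 and 2.81 CPM in the distal libraries, below the free RNA. Without proximal replicate 2 the difference was 0.91, and with 10% of each sum subtracted along the free RNA 4.63, neither past the threshold. The background was low as well. Without the block the edgeR test called 0 of 14424 genes (0%) in LEC-like cells (455 at an unadjusted p under 0.05, and 15 by DESeq2). It called 38 of 18616 (0.204%, with 0.118% higher and 0.0859% lower) in trophocyte-like and 1 of 15606 (0.00641%) in SEMF-like cells.

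Between the large bowel and the small intestine the Id genes moved together in LEC-like cells. Id1 was at 144 and 193 (proximal), 199.7 and 161 (distal), 908 (cecum) and 598 CPM (large intestine). Id2 was at 24.9 and 23.1 (proximal), 19.1 and 22.5 (distal), 152 (cecum) and 86.0 CPM (large intestine). Id3 was at 153 and 213 (proximal), 171 and 169 (distal), 779 (cecum) and 394 CPM (large intestine). In these tests cecum and large intestine had 1 library each, so the spread came from the pairs of small intestinal replicates. For each of the 3 Id genes both large bowel libraries were above all 4 small intestinal ones, with the cecum above the large intestine. The log2 differences were 2.04 ± 0.17 (SE, edgeR adjusted p = 0.000615), 2.31 ± 0.13 (SE, edgeR adjusted p = 0.000131) and 1.61 ± 0.16 (SE, edgeR adjusted p = 0.00145), where 13.8% of 14424 genes passed, 5.82% higher and 7.99% lower. The median over all genes was -0.10. Each passed under 12 of 12 alternative settings. Without the cecum they were 1.72, 1.87 and 1.10, with each still past the threshold. The large bowel libraries share a set of hashtags with replicate 1 of both small intestinal parts, and within that set the differences were 2.16 (edgeR adjusted p = 6.43e-06), 2.38 (edgeR adjusted p = 2.98e-06) and 1.88 (edgeR adjusted p = 7.59e-05). In the hashtag set comparisons, here and below, no replicate pair was left. Proximal and distal parts were pooled, as were cecum and large intestine. Their p-values thus rest on another spread and cannot be set against those of the main test. The cecum gave 162 LEC-like cells and the large intestine 220. The endothelial receptor Acvrl1 was also higher, at 57.0 and 59.8 CPM against 33.4 to 39.1 CPM (0.69 ± 0.14, SE, edgeR adjusted p = 0.0222), but not past the threshold without the cecum (0.0613) or the large intestine (0.118; both edgeR adjusted p). Free RNA held more Acvrl1 than the LEC-like cells of each library and was higher in the large bowel as well (125 and 106 CPM against 63.6 to 86.6 CPM). With 10% of each sum subtracted along it Acvrl1 still passed (0.72, edgeR adjusted p = 0.0391). Eng (0.11 ± 0.14), Acvr1 (-0.46 ± 0.14), Bmpr2 (-0.41 ± 0.17), Bmpr1a (0.07 ± 0.41) and Smad6 (0.09 ± 0.80) did not pass, although Bmpr2 (-0.55, edgeR adjusted p = 0.0113) and Acvr1 (-0.49, edgeR adjusted p = 0.0351) did without distal replicate 1 and with no filter on low counts (-0.46, edgeR adjusted p = 0.0436 and -0.51, edgeR adjusted p = 0.0286). Bmpr1b was at 0.987 to 2.79 CPM in the small intestine and had 0 UMIs in both large bowel libraries, which allows up to 3.17 CPM in the cecum and 1.57 CPM in the large intestine. Its difference did not pass (edgeR adjusted p = 0.119) except with no filter (edgeR adjusted p = 0.0146).

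Other values that could move with the Id genes were read in the same LEC-like cells. The 6 shared fibroblast markers summed to 437 to 787 CPM in the small intestine and 689 to 698 CPM in the large bowel, within that range. The 6 shared endothelial markers summed to 2336 to 2546 CPM in the small intestine and to 2784 and 3129 CPM in the large bowel, above that range, and to 3713 to 4620.0 CPM in BEC-like cells; their part was not tested. Free RNA held 1436 CPM of Id3 in the cecum, 920.2 CPM in the large intestine and 371 to 499 CPM in the small intestine. Of Id2 it held 155, 132 and 54.5 to 78.5 CPM, at or above the LEC-like level of the same library each time. With 10% of each sum subtracted along the free RNA the differences of Id1, Id2 and Id3 were 2.09, 2.61 and 1.68. The 13 immediate early and heat shock genes summed to 6602 to 12951 CPM in the small intestine, 19939 CPM in the cecum and 8761 CPM in the large intestine, and 3 of the 13 passed as higher. The large intestine lay inside the small intestinal range and the cecum above it, and the part of these genes was not tested.

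In trophocyte-like cells Id2 was higher in the large bowel, and Id3 was higher with the cecum in the fit. Id2 was at 58.5 and 71.0 (proximal), 59.8 and 41.9 (distal), 246 (cecum) and 135 CPM (large intestine). Id3 was at 324 and 349 (proximal), 341 and 242 (distal), 1163 (cecum) and 391 CPM (large intestine), so that the cecum stood far above the rest and the large intestine only just above. The log2 differences were 1.70 ± 0.19 (SE, edgeR adjusted p = 0.00298) for Id2 and 1.15 ± 0.20 (SE, edgeR adjusted p = 0.0135) for Id3. The fitted value for Id1 was 1.58 ± 0.27 (SE, edgeR adjusted p = 0.0138), where 15.3% of 18616 genes passed, 6.01% higher and 9.29% lower. The median over all genes was -0.24. Id2 passed under 11 of 11 alternative settings. Without the cecum Id3 fell to 0.37 (edgeR adjusted p = 0.414) and Id1 to 1.33 (edgeR adjusted p = 0.0789), and Id1 was background by the measure above. Free RNA held 169 and 306 CPM of Id1 in the large bowel and 59.8 to 154 CPM in the small intestine, so a higher level of Id1 in these cells is not shown. It also held 371 to 499 CPM of Id3 in the small intestine, 1436 CPM in the cecum and 920 CPM in the large intestine. Each was above the cells of the same library. Of Id2 it held 54.5 to 78.5 CPM in the small intestine, against 41.9 to 71.0 CPM in the cells. In the large bowel these were 155 and 132 CPM against 246 and 135 CPM. Of Acvrl1 it held 63.6 to 86.6 CPM and 125 and 106 CPM, above the cells of each library. The sizes of the Id2, Id3 and Acvrl1 differences are thus uncertain. Within the hashtag set Id2 passed at 1.74 (edgeR adjusted p = 0.00887) and Id3 did not, at 1.29 (edgeR adjusted p = 0.118). Immediate early and heat shock genes summed to 8961 to 11475 CPM in the small intestine, 32142 CPM in the cecum and 15909 CPM in the large intestine, with 11 of 13 higher, and shared fibroblast markers to 29385 to 34309.6 CPM in the small intestine and 35696 and 38519.7 CPM in the large bowel; their part was not tested. Acvrl1, at 0.49 ± 0.11 (SE, edgeR adjusted p = 0.0286), passed under 6 of 11 alternative settings. It did not pass when proximal replicate 1, proximal replicate 2, the cecum or the large intestine was left out (edgeR adjusted p from 0.0843 to 0.105). Eng (0.41 ± 0.12, SE, edgeR adjusted p = 0.0669) passed under 5 of 11 alternative settings, and Smad6 (-0.57 ± 0.27, SE, edgeR adjusted p = 0.198) with the looser gate alone. With the looser gate, which added trophocyte-like cells, Id1, Id2 and Id3 were at 1.97, 1.71 and 1.33.

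In SEMF-like cells Id1 alone of the Id genes passed. These cells met the gate with partly different markers in the large bowel. With only the later-listed SEMF markers 45 cells of the large intestine and 215 of the cecum were kept, in place of 917 and 1088, and 483 to 1132 of each small intestinal library, in place of 445 to 1169. The median SEMF-like cell held 1 telocyte marker in each small intestinal library, 2 in the cecal and 3 in the large intestinal one. Their part in the regional differences was not tested. Id1 was at 127 and 63.7 (proximal), 199.9 and 119 (distal), 382 (cecum) and 444 CPM (large intestine). The log2 difference was 1.92 ± 0.32 (SE, edgeR adjusted p = 0.00536) and passed under 12 of 12 alternative settings, where 34.3% of 15606 genes passed, 18.9% higher and 15.4% lower. Id2 and Id3 differed by 0.48 ± 0.23 (SE, edgeR adjusted p = 0.15) and 0.81 ± 0.39 (SE, edgeR adjusted p = 0.147). Without distal replicate 1 both passed, at 0.63 (edgeR adjusted p = 0.0457) and 1.11 (edgeR adjusted p = 0.0466). Id2 also passed with the stricter gate (0.67, edgeR adjusted p = 0.0432) and Id3 with no filter (0.77, edgeR adjusted p = 0.018). The target Smad6 was at 81.3 and 99.3 CPM in the large bowel, below the 113 to 145 CPM of the small intestine. Its difference passed with the looser gate alone (-0.61, edgeR adjusted p = 0.0439). The difference in Id2 between large bowel and small intestine was itself smaller in SEMF-like than in trophocyte-like cells, at -1.28 ± 0.32 (SE, edgeR adjusted p = 0.0331), where 6.76% of genes passed. It was larger in LEC-like than in SEMF-like cells, by 1.71 ± 0.33 (SE, edgeR adjusted p = 0.00909), where 8.09% passed. All 13 immediate early and heat shock genes were higher in the large bowel SEMF-like cells (9588 and 12273 CPM in sum against 896 to 2141 CPM). The shared fibroblast markers summed to 17636 to 19568 CPM against 8698 to 11307 CPM; their part was not tested. Bmpr2 was at 533 and 332 (proximal), 471 and 474 (distal), 208 (cecum) and 235 CPM (large intestine) and was lower in the large bowel, at -0.86 ± 0.25 (SE, edgeR adjusted p = 0.0348). It did not pass without proximal replicate 1 (0.155), distal replicate 1 (0.0502), the cecum (0.14) or the large intestine (0.0801; edgeR adjusted p), or with 10% of each sum subtracted along the free RNA (-0.88, edgeR adjusted p = 0.0567). Bmpr1b was also lower (-2.59 ± 0.60, edgeR adjusted p = 0.017), from 1.66 to 12.0 CPM in the small intestine to 0.619 and 0.661 CPM. Free RNA was lower in the large bowel as well. The Bmpr1b difference did not pass without distal replicate 2 (-2.36), the cecum (-2.64) or the large intestine (-2.55). It also did not by limma-voom (-2.52, adjusted p = 0.0711), with the looser gate (-1.76, edgeR adjusted p = 0.078) or after the same subtraction (edgeR adjusted p = 0.343). Within the hashtag set Bmpr1b (-2.16), Id2 (0.21) and Id3 (0.35) did not pass, while Id1 (1.49) and Bmpr2 (-1.03) did.

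Myofibroblast-like cells were compared in the same way after the values had been seen. Id3 (0.92 ± 0.18, SE, edgeR adjusted p = 0.00455) and Id2 (0.70 ± 0.20, SE, edgeR adjusted p = 0.0367) were higher and Smad6 lower (-1.27 ± 0.23, SE, edgeR adjusted p = 0.00275) in the large bowel, where 11.8% of 11222 genes passed. Smad6 was at 106 and 91.6 (proximal), 133 and 107 (distal), 39.2 (cecum) and 44.5 CPM (large intestine). Id1 did not pass (0.39 ± 0.22, SE, edgeR adjusted p = 0.262). Immediate early and heat shock genes summed to 14939 to 16276 CPM in the large bowel and 9410.1 to 10857 CPM in the small intestine, and their part was not tested. Id3 was at 291 to 361 CPM in the small intestine and at 504 and 624 CPM in the large bowel. Free RNA held more Id3 in each library, at 371 to 499 CPM in the small intestine. It held 1436 CPM in the cecum and 920 CPM in the large intestine, and its part was not tested either. In telocyte-like and pericyte-like cells no test was made by region. Id1 was at 148 and 192 (proximal), 476 and 172 (distal), 939 (cecum) and 364 CPM (large intestine) in telocyte-like cells. The cecum was highest and the large intestine lay inside the small intestinal range. The same held for immediate early and heat shock genes (15387 and 5948 CPM against 3156 to 8439 CPM). Shared fibroblast markers were above (13362 and 14779 CPM against 8515 to 12624 CPM) and shared endothelial markers below (7.22 and 9.54 CPM against 17.5 to 34.9 CPM). Their part was not tested. Smad6 was below, at 76.8 and 117 CPM against 153 to 267 CPM. In pericyte-like cells Id1 was at 329.9, 129 and 87.0 CPM in the 3 small intestinal libraries with enough cells. It was at 1467 CPM in the cecum and 869.8 CPM in the large intestine, both above those 3. Immediate early and heat shock genes (27704 and 29690.5 CPM against 18341 to 22529 CPM), shared fibroblast markers (4279 and 7076 CPM against 2466 to 4208 CPM) and shared endothelial markers (365 and 396 CPM against 318 to 326 CPM) were also above in these pericyte-like cells, and their part was not tested.

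**Figure D3:**
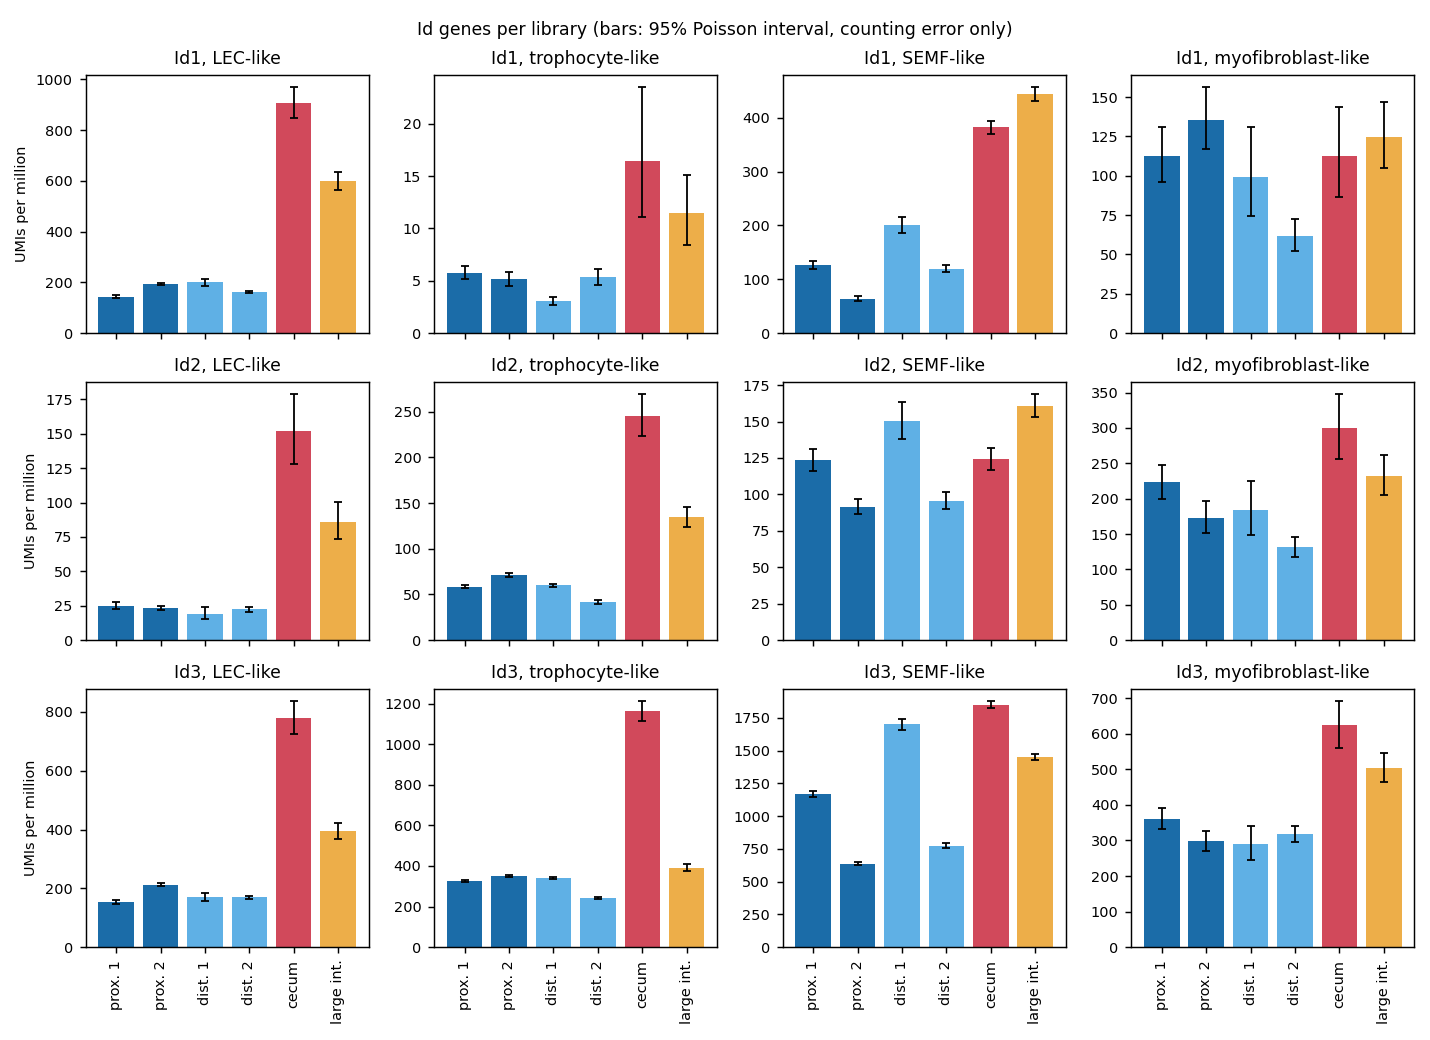
CPM of Id1, Id2 and Id3 in each library for 4 classes; whiskers are exact 95% Poisson intervals, which cover counting error only. In LEC-like cells both large bowel bars stand above all small intestinal ones for each gene, and Id2 in SEMF-like cells shows overlapping regions (91.6 to 150.1 CPM against 124 and 161 CPM).

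Bmpr1b set trophocyte-like cells of the 2 parts of the bowel apart. The small intestinal libraries held 3051, 4301, 2907 and 2235 UMIs of Bmpr1b in these cells and the large intestine 12, while none of the 1819714 UMIs of the cecum was Bmpr1b. For the large intestine that is 2.86 CPM (exact 95% Poisson interval 1.48 to 4.99, counting error only). A count of 0 in the cecum allows up to 3 UMIs, or 1.65 CPM. That bound is not the interval used for the large intestine and covers counting error of the cecal count only. By it the level there was at least 22.3-fold lower than in the lowest small intestinal library. Against the small intestinal mean of 59.9 ± 21.2 CPM (SD, n = 4) it was at least 36.3-fold lower. The difference had an edgeR adjusted p of 0.00136 and passed under 11 of 11 alternative settings, and within the hashtag set the adjusted p was 0.00209. With the looser gate the cecum held 1 UMI of Bmpr1b in 2394 trophocyte-like cells and the large intestine 79 in 1210. Free RNA held 18.1 to 32.7 CPM in the small intestine and 2.71 and 4.03 CPM in the large bowel, and the large bowel cells met fewer trophocyte markers, as given above. The drop was not limited to trophocyte-like cells. Cells in no class held 18.4 to 54.3 CPM in the small intestine and 0.806 and 6.23 CPM in the large bowel. Telocyte-like cells held 0 to 41.2 CPM and 0.434 and 1.07 CPM, which overlapped. Pericyte-like cells went the other way, at 0 to 3.67 CPM in the small intestine and 7.24 and 7.40 CPM in the large bowel. These rest on 2 and 16 UMIs, and no test was made. Myofibroblast-like cells held 132 to 296 CPM over all regions, and the difference did not pass there (0.46 ± 0.23, SE, edgeR adjusted p = 0.197). The regional difference was unequal between trophocyte-like and myofibroblast-like cells (edgeR adjusted p = 0.00094, where 1.76% of 17360 genes passed).

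**Figure D4:**
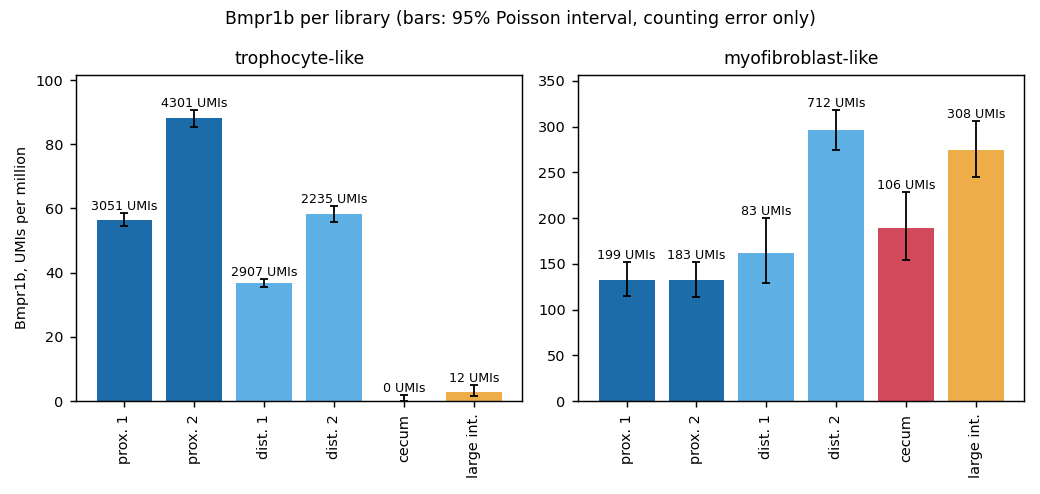
CPM of Bmpr1b in each library, with the number of UMIs above each bar and exact 95% Poisson intervals as whiskers. Trophocyte-like cells fall from 36.8 to 88.2 CPM in the small intestine to 0 and 2.86 CPM in the large bowel, while myofibroblast-like cells lie between 132 and 296 CPM throughout.

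Other genes of the pathway were read beside these regional differences. Of all genes 13.8% passed in LEC-like, 15.3% in trophocyte-like and 34.3% in SEMF-like cells. In LEC-like cells 5 of 33 tested were higher in the large bowel and 1 was lower. The higher ones were Fstl1 (243 ± 16.5 CPM against 63.9 ± 6.60 CPM, n = 2 and 4), Rgma (2.40), Tmem100 (2.27), Bmp4 (1.15) and Hey1 (0.47). The lower one was the type II receptor Acvr2a (40.7 ± 12.8 CPM against 109 ± 12.5 CPM). In trophocyte-like cells 8 of 37 were higher, among them Tmem100 (1.85), Bmper (1.22), Fst (22.2 ± 17.6 CPM against 4.17 ± 2.81 CPM), Msx1 (2.10) and Nog (1.58 ± 0.881 CPM against 0.274 ± 0.177 CPM). The 3 lower ones were the ligands Bmp2 (28.0 ± 2.23 CPM against 95.7 ± 14.0 CPM) and Bmp5 (37.4 ± 1.63 CPM against 127 ± 73.6 CPM) and the modulator Twsg1 (-0.55). SEMF-like cells went the other way for Bmp2, at 283 ± 133 CPM in the large bowel against 19.7 ± 1.99 CPM (3.94). In all 11 of 37 were higher there, with Fst (33.2 ± 29.5 CPM against 0.608 ± 0.744 CPM), Bmp7 (73.7 ± 65.7 CPM against 4.54 ± 2.72 CPM), Nog (1.97 ± 2.17 CPM against 0.116 ± 0.139 CPM) and Tmem100 (1.71). Of the 37, 9 were lower, with Bmper (-3.12), Hey1 (-1.30), Smurf1 (-1.23), Id4 (-1.17) and Smad9 (-1.13). Id4 was thus lower in the same SEMF-like cells in which Id1 was higher.

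The share of cells with a UMI, after each cell had been thinned to 2500 UMIs, followed the levels. Eng was seen in 81.8 ± 5.94% of BEC-like, 46.5 ± 3.98% of LEC-like and 11.2 ± 1.28% of trophocyte-like cells (mean ± SD over libraries), and Bmpr2 in 82.1 ± 7.40% of BEC-like cells. Bmpr1a was seen in 39.8 ± 2.86% of trophocyte-like cells (77.8% unthinned) and in 1.38 ± 0.524% of LEC-like and 2.20 ± 1.04% of BEC-like cells. Id1 was seen in 70.7 ± 9.16% of BEC-like and 2.05 ± 1.31% of trophocyte-like cells. Smad6 was seen in 34.3 ± 16.4% of telocyte-like and 0.317 ± 0.197% of LEC-like cells, and Bmpr1b in 26.4 ± 8.95% of myofibroblast-like and 0.753 ± 0.919% of SEMF-like cells. Bmpr1a and Smad6 in LEC-like cells and Id1 in trophocyte-like cells, of which nothing was left once 10% of each sum had been subtracted along the free RNA, are read as background. Of the 70 pairs of a member and a class, 57 had a mean share of at least 10%, and 61 when cells were not thinned.

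An Id3 UMI was more frequent in cells that also had an Id1 UMI. Among LEC-like cells the share with an Id3 UMI was 40.4% against 19.8% in cells with and without an Id1 UMI in proximal replicate 1 and 50.9% against 23.5% in proximal replicate 2. It was 34.4% against 19.9% and 43.1% against 19.5% in the distal replicates, 80.4% against 42.9% in the cecum and 45.3% against 23.9% in the large intestine. The order was the same in 29 of 30 pairs of a library and a class with enough cells, with a median gap of 16.5 percentage points. Of these pairs 4 were trophocyte-like, whose Id1 is read as background. Of the other gene combinations examined, an Eng UMI was more frequent in cells with an Acvrl1 UMI in 24 of 31 libraries and classes (median gap 2.64 points). The same held for a Smad6 UMI in cells with an Id3 UMI in 22 of 34 (0.923 points) and for a Bmpr1b UMI in cells with a Bmpr1a UMI in 12 of 28 (0 points). The genes differ in how often they are seen at all, so the gaps cannot be ranked against one another. Cells were thinned to the same depth, they are not replicates, and no test was made.

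**Figure D5:**
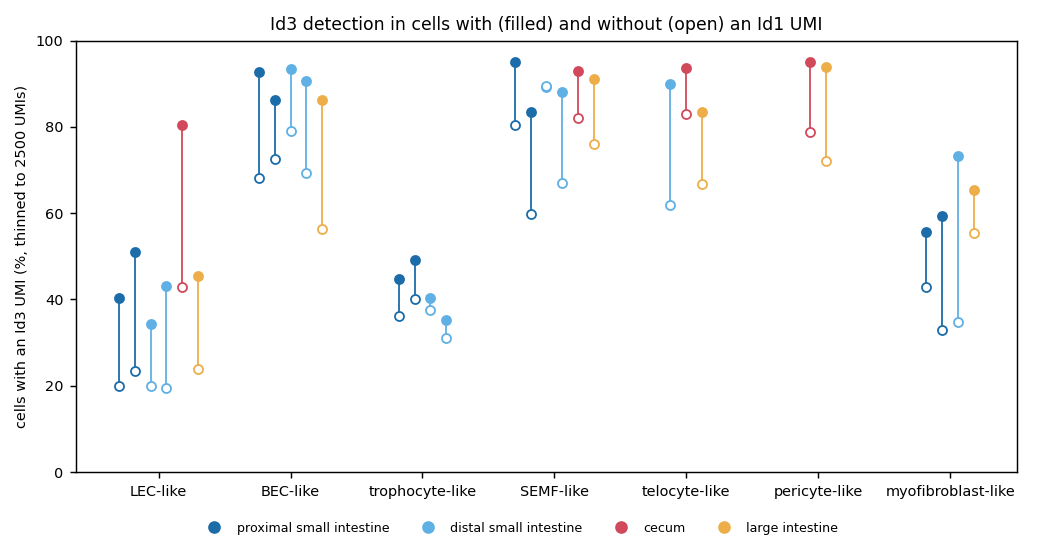
Share of cells with an Id3 UMI among cells with (filled) and without (open) an Id1 UMI, after thinning to 2500 UMIs; each line joins the 2 shares of a library within a class. The filled point was the higher in 29 of 30 lines, the exception being SEMF-like cells of distal replicate 1.

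Across the 40 sums of a class and a library, the level of Bmpr1a on the log2(CPM + 5) scale ran with Acvr1 (r = 0.76) and against Eng (r = -0.86). Acvrl1 ran with Smad6 (r = 0.77) and Id3 (r = 0.71), and Eng with Bmpr2 (r = 0.71) and Id1 (r = 0.69). The sums of a library share its cells and depth, so these correlations are descriptions. Among 7670 genes, those most like Bmpr1a over the 40 sums were Sdc2 (r = 0.98), Ddr2 (r = 0.98), Pla2r1 (r = 0.97). Those most like Bmpr1b were Sntg2 (r = 0.86), Pdgfc (r = 0.86), Lrrc7 (r = 0.84), and those most like Bmpr2 Pik3c2a (r = 0.90), Wwc2 (r = 0.89), Arl15 (r = 0.89). Most like Eng were Sptlc2 (r = 0.97), Itga6 (r = 0.96), Arhgap31 (r = 0.96). Most like Acvrl1 were St6galnac2 (r = 0.84), Col13a1 (r = 0.83), Imp3 (r = 0.83), and most like Acvr1 Foxf2 (r = 0.93), 1700018A04Rik (r = 0.91), Gria4 (r = 0.89). Id1 ran closest to Rgs3 (r = 0.88), Fez2 (r = 0.87), Bcar1 (r = 0.85), and Id2 to Nsmce1 (r = 0.76), Slc39a6 (r = 0.76), Higd1a (r = 0.75). Id3 ran closest to Imp3 (r = 0.84), Ldha (r = 0.77), Snhg1 (r = 0.77), and Smad6 to Dach1 (r = 0.92), Ptgs1 (r = 0.91), Ntf3 (r = 0.90). Ntf3 is a marker used for the SEMF-like gate.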

How the data were processed

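Cells sorted from 6 tissue samples were sequenced with a 3′ droplet kit. Per the labels and the authors' methods, reads were aligned to mm39 with Cell Ranger 8.1.0 (the matrix headers name 8.0.1), and the deposited matrices hold raw UMI counts for every barcode, before cell calling, doublet removal or correction for ambient RNA. How strand was used is not given in the sources used here. From these counts, the cell filter required 1000 to 7500 genes, 2500 to 40000 UMIs and a mitochondrial share below 10%. Cells with more than 1 hashtag (2.5 robust SDs) were removed as doublets.

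A cell entered a class when it held UMIs of at least 5 of 6 LEC, 5 of 8 BEC, 4 of 5 trophocyte, 5 of 8 SEMF, 4 of 6 telocyte (with at least 5 Pdgfra UMIs), 5 of 7 pericyte or 5 of 7 myofibroblast markers and met limits on shared endothelial, fibroblast, immune, epithelial, glial and universal fibroblast markers. These thresholds were set after the marker counts had been seen. The members and lists were chosen with earlier results of these data known.

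UMIs were summed per library and class (at least 20 cells; 40 sums). The main test was the quasi-likelihood test of edgeR 4.0.16 in R 4.3.3 (TMM scaling, filterByExpr with a minimum count of 10, Benjamini-Hochberg adjustment over all genes tested, threshold 0.05), with the library as a block between classes and without a block between regions. Interaction terms, the hashtag set comparison and the myofibroblast-like comparison were chosen after seeing the data. Standard errors are the log2 fold change divided by the root of F. Alternatives were limma-voom (limma 3.58.1), DESeq2 1.42.0, no filter, other gates, parts of the marker lists, cell filters and blocks, kept doublets, subtraction of 10% of each sum along free RNA (barcodes with at most 100 UMIs), and leaving out libraries. Counting intervals are exact 95% Poisson intervals and cover counting error only. Levels and shares were computed with Python 3.11.15 and numpy 2.4.6.

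Named were all members, up to 5 other pathway genes per direction and comparison with the largest change past the threshold, and the 3 genes (mean of at least 20 CPM) whose log2(CPM + 5) correlated best with each member. The fits were tested on simulated counts with 200 genes changed 2-fold. There the share of false calls was below the threshold of 0.05 for LEC-like against BEC-like cells, SEMF-like against trophocyte-like cells and the large bowel in LEC-like cells. It was above it in the other 3 class comparisons and for proximal against distal in each class. So it was for the large bowel in trophocyte-like and SEMF-like cells. Calls there are read as less firm than the threshold states. Each comparison was simulated only once, so shares a little above or below 0.05 cannot be told from it. The large bowel counts were drawn with the spread fitted to these data, so a larger spread between large bowel libraries was not covered. Fewer of the changed genes were found between proximal and distal SEMF-like cells than in any other comparison.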

Additional observations from a re-analysis of the deposited data

Results flagged for a closer look

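In 4 of the 60 sets of 4 small intestinal libraries examined, 1 library stood apart from the other 3, with a gap above Dixon's 95% critical value for 4 samples, which chance reaches in about 1 in 20 sets. Each time it was distal replicate 1. Bmpr1a was at 179.6 CPM there in trophocyte-like cells, against 216 to 222 CPM in the others, and at 162 CPM in telocyte-like cells (41 cells), against 222 to 225 CPM. Id1 was at 1757 CPM in BEC-like cells, against 1252 to 1322 CPM, and at 476 CPM in telocyte-like cells, against 148 to 192 CPM. In the 5 class and 6 region comparisons fitted again without this library, Bmpr1a and Id1 kept their side of the threshold, and where past it their direction. The single steps between other neighbouring classes, such as Bmpr1a between trophocyte-like and telocyte-like cells, are not covered by these fits.

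In 3 of the 70 differences between classes examined, a regional change was unequal for a member. The 70 took in proximal against distal as well, and all 3 were changes from small intestine to large bowel. Of all genes 6.76%, 8.09% and 1.76% passed in these 3 comparisons, in the order given here, so the count is not read as particular to the members. For Id2 it was 1.28 log2 units smaller in SEMF-like than in trophocyte-like cells (-1.28, edgeR adjusted p = 0.0331) and 1.71 larger in LEC-like than in SEMF-like cells (edgeR adjusted p = 0.00909). For Bmpr1b the fitted value in trophocyte-like minus myofibroblast-like cells was -9.00 (edgeR adjusted p = 0.000940). It rests on a cecum library with 0 UMIs and depends on the prior count, so the UMI counts and the bound given above are the measurement.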

How the results depend on the processing

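The members' values were recomputed 1751 times under the alternatives: 1668 kept their side of the threshold, 40 lost the call, 43 gained it and no called value changed sign. The class comparisons kept their counts of called genes within 1.5 times, except telocyte-like against SEMF-like cells (2297), with 1405 without the library block, and the count of neighbouring classes that differed ranged from 19 to 28.

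Region counts depended on single libraries. For the large bowel, LEC-like cells gave 1992 genes, 3442 with no filter and 757 (without the cecum) to 3756 (without distal replicate 1) with 1 library left out. Trophocyte-like cells gave 2849, with 1236 by limma-voom, 5683 with the looser gate, 1139 within the hashtag set and 887 (without the cecum) to 5496 (without distal replicate 1) with 1 library left out. SEMF-like cells gave 5349, with 2541 within the hashtag set and 2798 to 6728 with 1 library left out. Where this left a region with 1 sample, that sample was assumed to vary like the other regions. The stricter gate left too few large bowel trophocyte-like cells for a value.

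Proximal against distal gave 0 genes in LEC-like cells, with 15 by DESeq2, 124 with no filter and 0 to 14 with 1 library left out. It gave 38 in trophocyte-like cells, with 12 by limma-voom, 174 by DESeq2, 229 with no filter, 20 with the looser gate and 45 to 238 with 1 library left out. In SEMF-like cells it gave 1, with 0 by limma-voom, 28 by DESeq2, 236 with no filter, 0 with the stricter and the looser gate and 0 to 130 with 1 library left out. The causes were not tested.

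Replicate numbers are shared by 2 pairs of small intestinal libraries and nothing in the labels ties them to a batch. Deviations of the same-numbered libraries correlated by 0.0906 in LEC-like, 0.310 in trophocyte-like and 0.387 in SEMF-like cells, which 2 pairs cannot establish as pairing. With the replicate block the proximal and distal counts were 36, 870 and 293 in these classes, and Bmpr1b in trophocyte-like cells (0.60, edgeR adjusted p = 0.00146) and Bmpr1b (1.88, 2.57e-05) and Id1 (-0.82, 0.00352) in SEMF-like cells passed.

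Depth limited Bmpr1b in large bowel LEC-like cells, where counts of 0 allow a level as high as in part of the small intestinal libraries.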
